A study of Drosophila melanogaster with 2 samples.

Results

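The regions described here were the Nf-YA peaks that lay deep inside genes of the fly embryo. A peak was counted when its summit fell inside a gene body, in no annotated exon, and more than 2000 bp from the nearest annotated start site on either strand, and such peaks are called far intronic peaks below. They made up 658 of the 3354 peaks of the pooled list (19.6%, exact 95% interval 18.3 to 21.0). Among the peaks of that list the rule used position only, so their height and their presence in the replicates' own lists played no part in the choice. The pooled list itself held only peaks that had passed the authors' threshold on reproducibility between replicates. The peaks came from whole Drosophila melanogaster embryos collected from 0 to 24 h, in 1 group of 2 biological replicates. All embryos carried a transgene whose product is an Nf-YA-eGFP fusion, eGFP being a fluorescent tag, and the chromatin, sheared by sonication to 200 to 800 bp, was precipitated with an antibody against that tag. There was no second genotype, stage or treatment, sex was not recorded, and the control library named by the submitters was not analysed here.

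NF-Y is a transcription factor of several subunits, of which NF-YA makes the sequence-specific contact with the CCAAT box, while the other subunits form a histone-like pair. In vertebrates it is known above all from promoters, where CCAAT boxes lie a short way upstream of the start site. Long introns of fly developmental genes are known to hold enhancers, which act on promoters at a distance. In whole embryos, a low peak from weak occupancy in many cells and one from strong occupancy in few cells cannot be told apart.

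Few far intronic summits held the complete NF-Y motif, and these few are shown first, because this is the sequence NF-Y is known to bind. The motif searched was CCAAT with 2 purines before it and then C or G and a purine after it, on either strand, within 50 bp of the summit. It lay at 9 of the 658 summits, and 4 of these peaks were present in the thresholded list of both replicates. The windows reaching 50 bp to each side of those 4 summits are given on the plus strand of dm6, with the motif in capitals. They are chr2L:6833798-6833898 in an intron of sens-2, chr4:508605-508705 in an intron of zfh2, chr2L:19941484-19941584 in an intron of sick, and chr3R:18125206-18125306 in an intron of sr. In zfh2 the motif reads on the minus strand.
sens-2: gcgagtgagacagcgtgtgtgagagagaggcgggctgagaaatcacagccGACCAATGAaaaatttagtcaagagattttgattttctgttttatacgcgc
zfh2: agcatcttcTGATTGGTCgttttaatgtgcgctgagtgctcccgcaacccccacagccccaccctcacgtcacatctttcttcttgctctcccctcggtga
sick: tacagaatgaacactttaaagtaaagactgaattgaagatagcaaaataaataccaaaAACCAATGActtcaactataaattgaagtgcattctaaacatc
sr: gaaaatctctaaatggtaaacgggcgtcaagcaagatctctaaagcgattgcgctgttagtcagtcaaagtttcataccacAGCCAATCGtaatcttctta

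For comparison, the windows of 3 of the tallest far intronic peaks without the complete motif are shown, to let their AT content be seen. They are chrX:3742158-3742258 in Tlk, chr3L:3060741-3060841 in CG32486 and chrX:2297658-2297758 in Raf, again on the plus strand of dm6. Capitals mark a match on either strand to the core CCAAT, to the letters of the TATA box (TATAAA) or to those of GATA factors (which are GATAA). The Tlk and Raf windows each held the CCAAT core without the flanking bases of the complete motif, and the CG32486 window held none of the 3.
Tlk: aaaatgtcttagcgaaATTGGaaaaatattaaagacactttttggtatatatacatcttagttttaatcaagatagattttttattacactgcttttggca
CG32486: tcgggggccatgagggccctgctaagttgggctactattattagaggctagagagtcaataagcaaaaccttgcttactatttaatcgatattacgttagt
Raf: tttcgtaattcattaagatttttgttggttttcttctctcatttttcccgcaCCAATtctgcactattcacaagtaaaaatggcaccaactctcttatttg

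Most far intronic peaks lay in protein-coding genes, which also make up most genes with intronic sequence that far from a start site. Of the 658, 648 lay in a coding gene and 10 in noncoding genes alone. A summit lay in 1 gene in 612 cases and in overlapping genes in 46. The 433 host genes, 418 of them coding, were 9.99% of the 4333 genes that have intronic sequence more than 2000 bp from a start site. Of those 4333 genes 4216 were coding. Among the hosts 282 held 1 peak. The other 151 hosts held 394 of the peaks, up to 9 in a gene. The introns that held the peaks had a median length of 14045 bp (interquartile range 7714 to 26221). The distance rule itself favours long introns, and no length of introns without a peak is given here.

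By the rule of choice all these peaks lay more than 2000 bp from any start site, and beyond that limit they grew sparser with distance. Intronic sequence held 23.72 summits per Mb at 2000 to 5000 bp and 4.286 per Mb beyond 20000 bp. The median distance was 5213 bp (interquartile range 3367 to 9249), the farthest lay 47638 bp away, and 148 lay more than 10000 bp away. The nearest start site was that of the host in 446 cases (67.8%) and that of another gene in 212. At the distance limit itself, the closest peak taken in lay at 2004 bp with a signal of 63.6, and the last left out lay at 1990 bp with a signal of 73.8. The 16 peaks taken in within 100 bp of the limit had a median signal of 75.9, and the 22 intronic peaks left out within 100 bp of it had 89.9. Another pooled summit lay within 5000 bp of 306 of them (46.5%), close to the 47.1% over all pooled summits, and the median distance to the next was 6004 bp. With overlapping peaks merged the shares were 40.5% and 41.2%.

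About 1 in 3 far intronic peaks was found in both replicates. A pooled peak was said to be in a replicate when it shared at least 1 bp with a peak of that replicate's own thresholded list. Of the 658 far intronic peaks, 211 (32.1%, exact interval 28.5 to 35.8) were in both lists, 68 in replicate 1 alone, 172 in replicate 2 alone and 207 in neither. Over all 3354 pooled peaks the share in both was 40.5%. The conservative list, made by the authors from both replicates, held 534 of the far intronic peaks (81.2%) with the same coordinates, against 80.0% of all pooled peaks.

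Signal is the height the authors deposited for each peak, in units that are not given. The pooled signal of far intronic peaks ran from 2.45 to 588 with a median of 82.4 (interquartile range 66.2 to 111). In the replicates' ranked lists, which hold many peaks below the threshold, 656 of the 658 had an entry in each. There the median signal was 37.7 in replicate 1 and 48.2 in replicate 2, and replicate 2 was the higher in 496 peaks (75.6%). Depth and precipitation of the libraries are not known from the lists, so levels set side by side between replicates describe the lists alone. Across the 656 peaks, which share the same libraries and are not replicates, Spearman's rho was 0.525 and Pearson's r of log2 signal was 0.57. Over all 3330 pooled peaks with both entries these were 0.642 and 0.68.

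**Figure D1:**
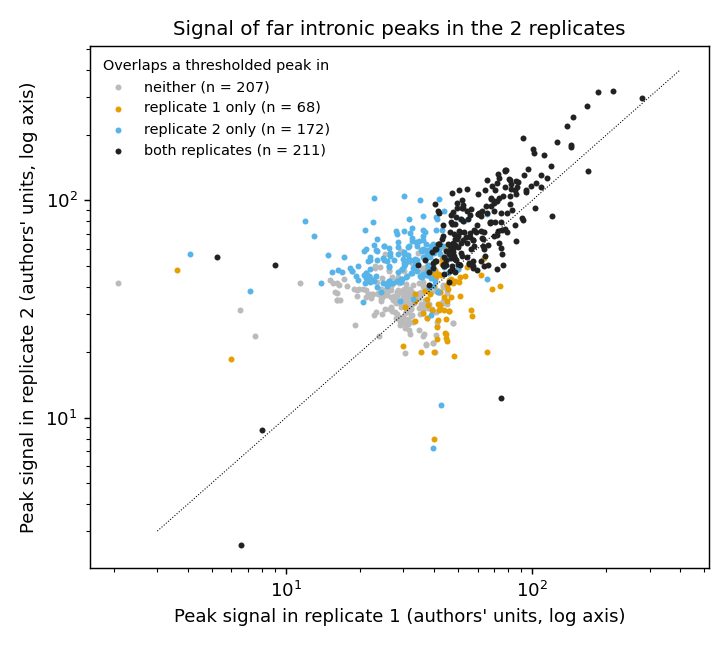
Each point is a far intronic peak, placed by its signal in the ranked list of replicate 1 (horizontal) and replicate 2 (vertical), in the authors' units on log axes, with colours for presence in the thresholded lists. The dotted line marks equal signal, and 496 of the 656 peaks lie above it.

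Far intronic peaks were less often in the tall group and less often shared between replicates than promoter and near intronic peaks. Against far intergenic peaks neither difference passed in the pooled list with the top 25% as tall. The difference in height passed in some other settings and not in others. Summits of 4 classes were set side by side: far intronic, near intronic (over 500 and up to 2000 bp from a start site, 499 summits), far intergenic (over 2000 bp, 261 summits) and promoter (within 500 bp, 1561 summits). The shares in both replicates were 32.1%, 42.7%, 33.7% and 46.4%. The odds for far intronic peaks were 0.546 times those of promoter peaks (interval 0.448 to 0.664, Fisher's exact test, two-sided, adjusted p = 1.1e-09). Against near intronic peaks the odds ratio was 0.634 (0.494 to 0.813, exact test, adjusted p = 4.4e-04). That call was lost in the upper 50% by signal (0.715, exact adjusted p = 0.114) and with a distance limit of 5000 bp (0.761, exact adjusted p = 0.0688). Against far intergenic peaks it was 0.928 (0.678 to 1.28, exact test, adjusted p = 0.640), an interval that reaches from a lower to a higher share. Adjustment was over 6 comparisons, 3 of them on the share in both replicates and 3 on the share of tall peaks. Summits are regions of the same embryo samples and not replicates, so these tests and intervals cover counting error only.

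Tall peaks were also fewer among them. The top 25% of all pooled peaks by signal held 110 of the 658 far intronic peaks (16.7%, exact interval 13.9 to 19.8). The top 25% held 119 of the 499 near intronic peaks (23.8%), 50 of the 261 far intergenic peaks (19.2%) and 486 of the 1561 promoter peaks (31.1%). The odds ratio was 0.444 against promoters (0.349 to 0.562, Fisher's exact test, adjusted p = 4.5e-12), 0.641 against near introns (0.474 to 0.866, exact adjusted p = 0.00430) and 0.847 against far intergenic peaks (0.578 to 1.25, exact adjusted p = 0.464). The last call turned on the list and on where the line for tall peaks was drawn. With the top 10% of the pooled list as tall, which held 23 of the 658, the odds ratio was 0.314 (Fisher's exact test, adjusted p = 2.0e-04). In the own list of replicate 1 the odds ratio was 0.326 (Fisher's exact test, adjusted p = 5.9e-05) and in that of replicate 2 it was 0.610 (exact adjusted p = 0.0371), so that tall peaks were fewer among far intronic ones in each of these settings. The difference did not pass in the conservative list (0.76, exact adjusted p = 0.189) or with merged peaks (0.767, exact adjusted p = 0.232). Nor did it pass with a distance limit of 1000 bp (0.835, exact adjusted p = 0.293) or 5000 bp (0.744, 0.321), or with protein-coding genes alone annotated (0.760, 0.107).

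**Figure D2:**
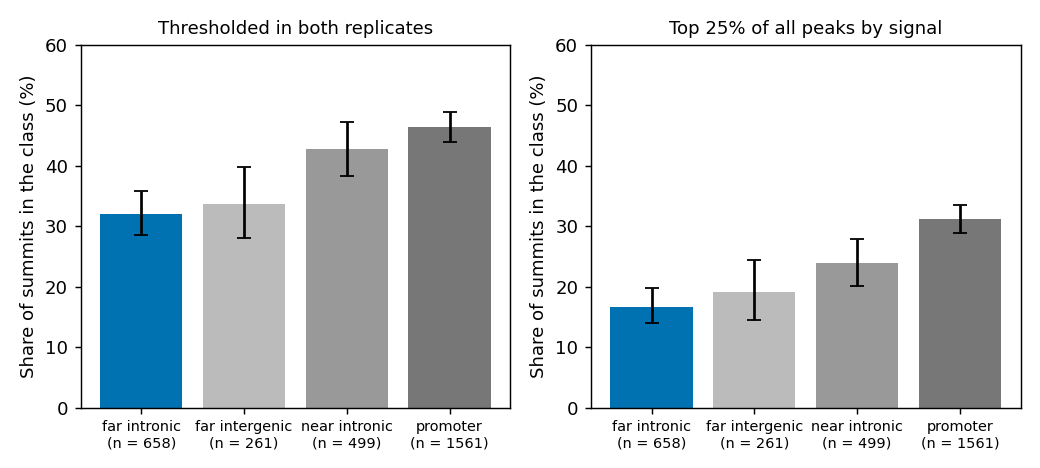
Bars give the share of summits in each class that were in the thresholded lists of both replicates (left) and that stood in the top 25% of pooled peaks by signal (right), in percent, with exact 95% intervals. Far intronic peaks stand at 32.1% and 16.7%, far intergenic ones at 33.7% and 19.2%, and near intronic and promoter peaks higher.

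Presence in both replicates went with height. Cut by pooled signal into 4 groups of 164 or 165, the tallest far intronic peaks (signal 111 and above) were in both lists in 149 of 165 cases (90.3%). The next group (82.5 to 111) had 53 of 164 (32.3%), the third 2 of 165 (1.21%) and the lowest 7 of 164 (4.27%). The conservative list held 165, 159, 139 and 71 of them. Signal is used both for the groups and, through the lists' thresholds, for presence, so this is a description.

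The lowest far intronic peaks lay beside taller ones. A signal under 20 was found at 28 of the 658, from 2.45 to 19.2, and the next lowest peak had 22.0. All 28 overlapped a taller pooled peak, with a signal of 49.5 to 169, whose summit lay 199 to 229 bp away, on the side of lower coordinates in each case. Of these 28, 6 count as in both replicates through the overlap. With overlapping peaks merged, there were 625 far intronic peaks among 3188. The width of a peak was the same 330 bp in 625 of the 658, and the 33 narrower ones had a median signal of 231 against 80.7.

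Intronic sequence held more summits per base than intergenic sequence, with each taken as a whole beyond 2000 bp from start sites. Far intronic sequence came to 41.4 Mb and held 15.9 summits per Mb (exact Poisson interval 14.7 to 17.2), and far intergenic sequence came to 28.9 Mb and held 9.04 per Mb (7.98 to 10.2). The ratio was 1.76 (1.52 to 2.04, exact binomial p = 1.4e-15). The classes were not matched by distance beyond the limit, and intronic sequence outside first introns held 9.37 per Mb. Bases read as N were left out, but how well reads can be placed in each kind of sequence was not analysed here, and its part in the ratio was not tested.

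Within introns, first introns stood out. Sequence in the first intron of any transcript held 416 of the 658 summits (63.2%) in 15.6 Mb, or 26.8 per Mb, and later introns held 242 in 25.8 Mb, or 9.37 per Mb. This is a ratio of 2.86 (2.43 to 3.36, exact binomial p = 3.1e-40). First introns lie nearer to start sites, so the densities were also taken by distance. At 2000 to 5000 bp first introns held 33.1 summits per Mb, later introns 13.9 and intergenic sequence 15.4. At 5000 to 10000 bp the densities were 25.9, 12.1 and 10.5 per Mb, and at 10000 to 20000 bp they were 19.2, 9.99 and 8.22. Beyond 20000 bp they were 14.0, 2.47 and 0.904, from 19, 18 and 7 summits. First introns were thus the densest in each bin, whereas the values of later introns lay close to those of intergenic sequence from 2000 to 20000 bp. The bins were not tested one by one.

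**Figure D3:**
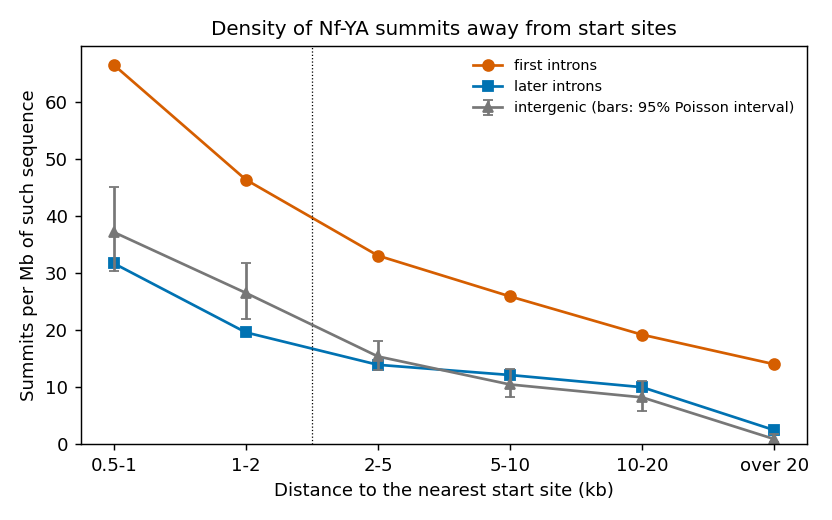
Summits per Mb of first introns, later introns and intergenic sequence are plotted by distance to the nearest start site in kb, with exact 95% Poisson intervals on the intergenic points and a dotted line at 2000 bp. First introns fall from 66.5 per Mb at 500 to 1000 bp to 14.0 beyond 20000 bp and stay above the others in each bin.

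Far intronic density was similar between the large chromosome arms. It was 18.1 summits per Mb of eligible intron on 2L, 14.3 on 2R, 16.2 on 3L, 14.0 on 3R and 18.6 on X. Chromosome 4 held 1 summit, that of zfh2, in 0.429 Mb (2.33 per Mb, exact interval 0.0590 to 12.98). X stood at 1.21 times the density of the autosomes (interval 0.999 to 1.45, exact binomial p = 0.0489), a difference at the edge of what the counts can show.

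Far intronic summits lay in short AT-rich stretches between GC-richer shoulders. Within 50 bp of the summit mean GC content was 35.8%, and in a window of the same length 500 bp away on 1 randomly drawn side it was 40.3%, a mean difference of -4.51 points (SD 14.0 over peaks). The summit was the lower in 415 peaks and the higher in 234 (two-sided exact sign test, p = 1.1e-12). Tiling all eligible intronic sequence in 409578 windows of that length gave 40.2%, so the flank and not the summit lay at the intronic level. Along the profile in 51 bp windows GC fell to 35.0% at the summit (SE 0.438, n = 658), rose to 44.3% at 150 bp to the left (SE 0.415) and 44.5% to the right (SE 0.414), and was 39.8% at 1000 bp to the right.

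Near intronic summits followed the same course, with 35.2% at the summit and 43.7% at 150 bp to the left. Far intergenic summits showed the dip and the shoulders too, with 38.3% at the summit, 45.4% at 150 bp to the left and 46.3% to the right. Promoter summits reached 38.0% without such shoulders. The dip went with signal. The mean difference from the flank was -7.20 points (SD 12.5) in the tallest of the 4 groups of far intronic peaks, -5.71 (SD 13.4) and -5.26 (SD 14.4) in the middle groups and 0.121 (SD 14.7) in the lowest.

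**Figure D4:**
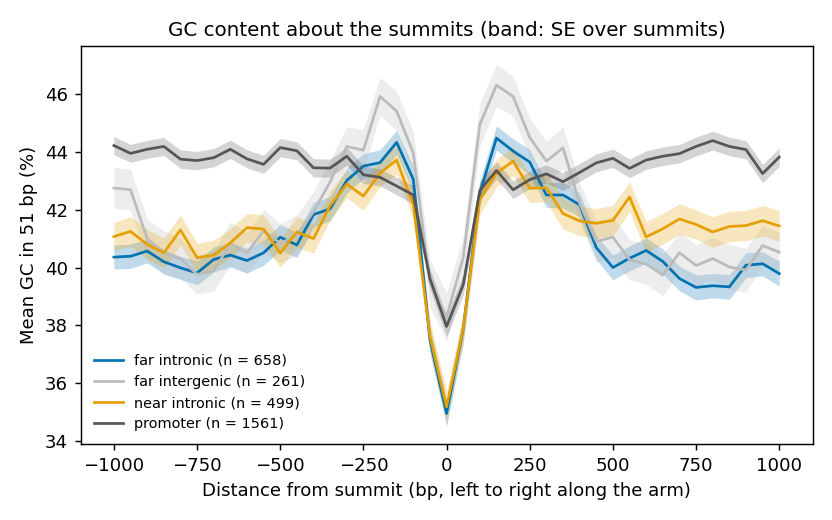
Mean GC content in windows of 51 bp is plotted against the distance from the summit in bp, for far intronic, near intronic, far intergenic and promoter summits, with bands of 1 SE over summits. The far intronic line falls to 35.0% at the summit between shoulders of 44.3% and 44.5%.

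None of the motifs searched differed between far intronic summits and the sequence beside them after adjustment. Of 29 motifs, each searched for in both orientations in the windows about summit and flank, 0 were higher at the summit (0% of those tested) and 0 were lower (McNemar's exact test, smallest adjusted p = 0.184). Before adjustment 6 had a p under 0.05, 2 higher and 4 lower. The motifs, with the letters searched, were the CCAAT core, the sites of GATA factors (letters GATAA) and of the GAGA factor (letters GAGAG), the CA repeat (CACACACA), Zelda (CAGGTAG), Twist (CATATG), Snail (CAGGTG), homeodomain proteins (TAATTA) and Exd-Hox (TGATNNAT), and the TATA box (letters TATAAA). Others were DRE (TATCGATA), AP-1 (TGANTCA), CRE (TGACGTCA), Grainyhead (AACNNGTT), Sox (ATTGTT), Forkhead (TGTTTNC), Pho (GCCATNTT), Su(H) (GTGGGAA), STAT (TTCNNNGAA), Dorsal (GGGNNTTCC) and CTCF (AGGNGGC). The rest were Mef2, TCF (CTTTGAT), Caudal (TTTATNG), ETS (CCGGAAG), a run of A (AAAAAAAA), T-box (AGGTGTNA), a site of nuclear receptors (AAGGTCA) and the complete NF-Y motif, each match of which also holds CCAAT.

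The NF-Y motif itself was rare in these introns. Its complete form lay at 9 summits (1.37%, exact interval 0.627 to 2.58), at 3 flanks (0.456%) and in 1.08% of intronic tiles (McNemar's exact test, summit against flank, adjusted p = 0.470). The bare CCAAT core lay at 118 summits (17.9%), 116 flanks (17.6%) and 19.3% of tiles (exact adjusted p = 1). The complete motif lay at 10 of 261 far intergenic summits (3.83%) and 42 of 1561 promoter summits (2.69%), and neither difference passed (Fisher's exact test, adjusted p = 0.513 and 0.202).

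Among the 9 far intronic peaks with the complete motif the height varied widely. The tallest lay in sens-2, a gene for a zinc finger protein of the Senseless family, with a pooled signal of 318 and 169 and 136 in replicates 1 and 2. Its motif centre lay 4 bp from the summit. The peak in zfh2, a gene for a protein with zinc fingers and homeodomains, had 205 (120 and 84.5). The peak in sick had 164 (54.3 and 112), and that in sr, the gene of the tendon cell regulator Stripe, had 144 (56.5 and 91.0). These 4 were in both replicates, and 2 of them were higher in replicate 1 and 2 in replicate 2.

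The remaining 5 were lower. The peaks in how, a gene for an RNA-binding protein of muscle, with a signal of 84.8, and Fas1, a gene for a neural adhesion protein, with 66.4, were in replicate 1 alone. Those in mew, a gene for an integrin subunit (65.7), in the overlapping CG1677 and lncRNA:CR44357 (57.2) and in bol, a gene for an RNA-binding protein of the germ line (3.07), were in neither list. The bol peak is among those with a signal under 20, all of which overlapped a taller pooled peak.

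The TATA box letters came nearest to a difference. They lay at 130 summits (19.8%), 93 flanks (14.1%) and 12.9% of tiles (McNemar's exact test, adjusted p = 0.184). The call depended on the flank and window: with the flank 1000 bp away it passed (71 flanks, 10.8%, exact adjusted p = 2.8e-04), and so it did with the flank always to the left (adjusted p = 0.0148), with 100 bp each side (0.0210), with merged peaks (0.0166) and with a distance limit of 1000 bp (0.0125). GATA letters lay at 22.6% of summits and 18.4% of flanks and Forkhead letters at 15.8% and 11.6% (McNemar's exact test, adjusted p = 0.284 and 0.200). The summits' lower GC content stands beside all of these, since each holds more A and T than G and C, and its part was not tested. GAGA letters (10.9% and 14.7%), the CA repeat (2.13% and 4.56%), CTCF letters (2.13% and 4.41%) and Dorsal letters (0.304% and 1.52%) were the lower ones before adjustment. With a distance limit of 1000 bp GAGA letters (11.4% and 16.1%) and the CA repeat (18 and 41 of 911) passed as lower (McNemar's exact test, adjusted p = 0.0394 for each). With merged peaks CTCF letters did (1.76% and 4.96%, exact adjusted p = 0.0419).

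Against promoter summits 1 motif differed with windows of 50 bp each side. The DRE, the site of the promoter factor Dref, lay at 0 of the 658 far intronic summits, which allows up to 0.559%, and at 26 of the 1561 promoter summits (1.67%, Fisher's exact test, adjusted p = 0.00383). It was the only 1 of the 29 motifs (3.45%) to pass against promoters, where 8 had an unadjusted p under 0.05. With windows of 100 bp each side the call held (Fisher's exact test, adjusted p = 3.2e-08). The DRE then lay at 1 far intronic summit (0.152%) and 67 promoter summits (4.29%). The call also held with a distance limit of 1000 bp (exact adjusted p = 3.3e-04), with protein-coding genes alone annotated (0.00167) and with merged peaks (0.00383). DRE letters were rare in introns as a whole, at 0.214% of tiles, and the call was lost in the conservative list (exact adjusted p = 0.0542) and in the own list of replicate 1 (0.838) or replicate 2 (0.400). It was also lost in the upper 50% by signal (exact adjusted p = 0.260), beyond 5000 bp (0.231) and with windows of 25 bp each side (0.0999). In those narrower windows GAGA letters passed instead, at 28 far intronic summits (4.26%) and 135 promoter summits (8.65%, Fisher's exact test, adjusted p = 0.00681). Against far intergenic summits 0 of 29 passed (0%, smallest adjusted p = 0.513 by Fisher's exact test), with 2 under 0.05 before adjustment.

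The 15 tallest far intronic peaks that were in both lists are described next. CG12769 held the tallest, with a pooled signal of 588, made of 279 in replicate 1 and 298 in replicate 2. Tlk, the gene of the Tousled-like kinase that acts on chromatin assembly factors, followed with 532 (214 and 318), 2311 bp from its own start site. CG32486 had a peak of 504 (185 and 315), whose nearest start site, 5712 bp away, was that of CG16753. Raf, the gene of the kinase that relays receptor tyrosine kinase signals to the MAP kinase cascade, held peaks of 433 (167 and 272) and 317 (143 and 176). In 14 of the 15 tallest peaks that were in both lists, replicate 2 had the higher signal, and the exception was that of sens-2.

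The fifth of these 15, with a signal of 395 (146 and 241), lay in the overlapping genes CG12912, Hr3 and CG46321. Hr3 encodes a nuclear receptor of the ecdysone cascade. Gug, the gene of the corepressor Atrophin, held 359 (138 and 221), and sbb, a gene for another corepressor, held 330.4 (144 and 180.2). JIL-1, a histone H3 kinase gene, held 309.8 (126 and 186), upSET, a gene for a chromatin protein with a SET domain, held 293 (91.7 and 195), and simj, a gene for a subunit of the NuRD complex, held 273 (102 and 165). Eip63E, a cyclin-dependent kinase gene, held 280.3 (112 and 162). The last 2 lay in genes of epidermal growth factor receptor signalling: S, the gene of Star, which moves the ligand through the cell, with 266 (119 and 143), and aos, the gene of the secreted antagonist Argos, with 262 (100.5 and 172), where CG33158 overlaps. Of the 15 peaks, 10 lay in a first intron, 13 had the host's start site as the nearest and 11 had a lower GC content at the summit than at the flank, with summit GC between 21.8% and 46.5%.

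Some genes held far intronic peaks in series. The counts take in side summits, which overlap a taller peak, and the ranking below is not of merged peaks. Peaks with a signal under 20, all of them side summits, were counted in sbb, ush, lncRNA:CR44357 and ftz-f1. Ranked by number and then by summed signal, sbb led with 9 in 46.8 kb of eligible intron. Its peaks had pooled signals from 7.92 to 330.4, 7 of the 9 were in both replicates, and those of 330.4, 231, 223 and 143 spanned 5046 bp. The gene ush, for a cofactor of GATA factors, also held 9, in 41.4 kb. There 1 peak of 216 (87.7 and 122) was in both replicates, the next had 106, and the others lay between 4.75 and 71.5. The long noncoding gene lncRNA:CR44357 held 9, in 162 kb, with signals from 9.82 to 153, and some of these lay in CG1677 or Cph as well.

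The other leading hosts were Raf and nuclear receptor genes. Raf held 7 peaks in 24.5 kb, with signals from 72.7 to 433, 3 of the 7 were in both replicates, and 6 of the 7 spanned 8878 bp. The nuclear receptor gene ftz-f1 held 7 in 36.8 kb, from 4.20 to 102, and 1 of these was in both replicates. Of its 7 peaks, 6 also lay in the overlapping lncRNA:CR45939. Hr4, another nuclear receptor gene of the ecdysone cascade, held 6 in 45.2 kb, and 3 of them (215, 200.4 and 188) were in both replicates, while the other 3 had 61.3 to 75.4 and were not.

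**Figure D5:**
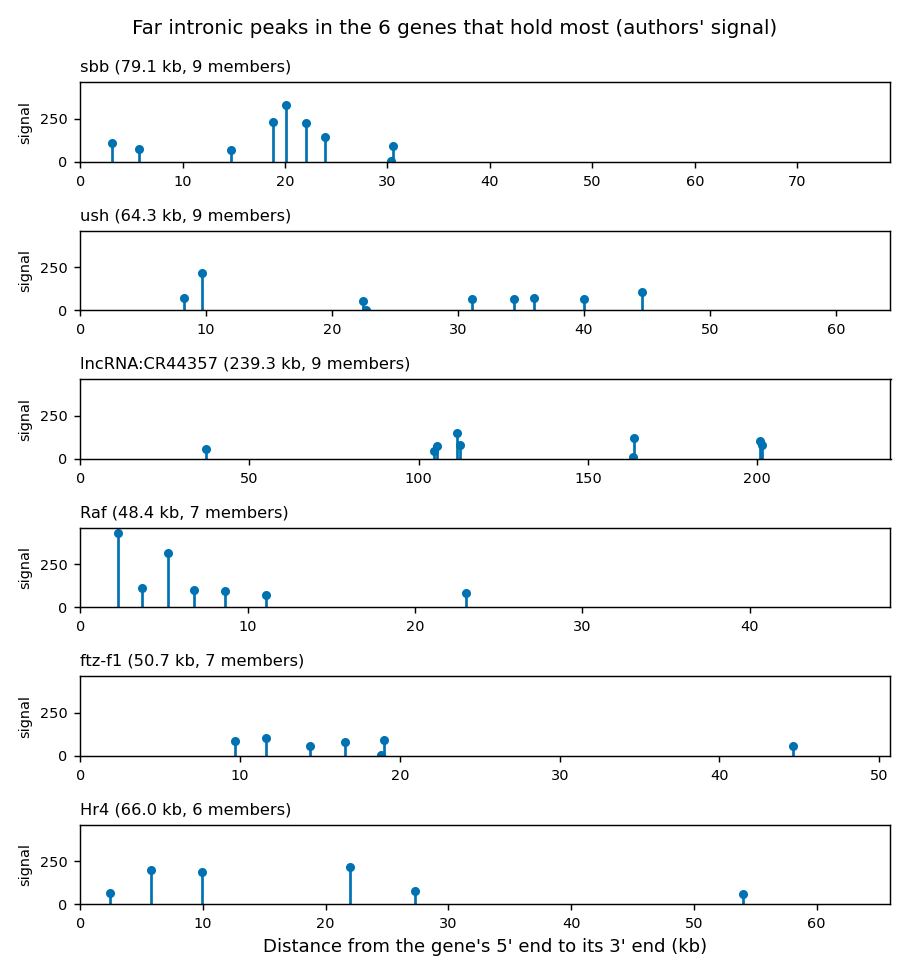
Each panel shows 1 of the 6 host genes with most far intronic peaks, drawn to its own length in kb from the 5′ end to the 3′ end, with a stem at each summit whose height is the authors' pooled signal. The tall peaks of sbb stand next to each other, and those of Raf stand near its 5′ end.

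Groups of genes were described by how many of their members with eligible intronic sequence held a far intronic peak, and by peaks per Mb of that sequence. Over all genes with such sequence 9.99% held one, and the density over eligible sequence was 15.9 per Mb. Genes with more eligible intron held a peak more often: of coding genes 2.28% did with up to 5 kb, 14.4% with 5 to 10 kb, 24.0% with 10 to 20 kb, 28.5% with 20 to 40 kb and 42.6% with more. Peaks per Mb ran the other way, from 24.98 with up to 5 kb to 10.5 with more than 40 kb. A list's share and its density therefore both move with the length of its introns, and no test was made of any list.

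Among the lists, ecdysone and nuclear receptor genes had the highest density of peaks. Of 18 such genes with eligible intron 8 held a peak (44.4%), 24 peaks in all, or 49.1 per Mb. Hr3 and Eip63E held the tallest, as given above, and Hr4 and ftz-f1 held 13 of the 24, side summits of ftz-f1 included. The other 4 were named after their values were seen: Eip75B with a tallest peak of 139 (52.3 and 92.6), Eip74EF with 122 (48.5 and 78.2), Eip93F with 77.0 (31.1 and 44.9) and EcR, the ecdysone receptor gene, with 74.7 (41.2 and 26.2). The tallest of the 3 peaks of Eip75B and the peak of Eip74EF were in both replicates. The peak of Eip93F was in replicate 2 alone and that of EcR in replicate 1 alone.

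Developmental regulators of other families held 16.1 to 27.2 peaks per Mb, beside 15.9 over all eligible introns. Coding genes at large held 23.2 per Mb with 10 to 20 kb of eligible intron and 10.5 with over 40 kb. The lists were not matched by intron length, so these densities alone cannot set the families apart from other genes. Among zinc finger and helix-loop-helix regulators 18 of 46 held one (39.1%, 24.6 peaks per Mb), the tallest in ush and in grh, the gene of Grainyhead, with 147 (68.3 and 80.0). Among homeobox genes 11 of 63 did (17.5%, 16.1 per Mb), the tallest in zfh2 and in hth, a gene for a Hox cofactor, with 139 (40.3 and 96.0). Of the Sox, T-box and forkhead genes 2 of 20 did (27.2 per Mb), CHES-1-like with 173 (69.8 and 96.9) and bi, a T-box gene, with 123 (43.3 and 77.3).

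Per Mb, signalling genes held more peaks than all eligible introns together (15.9), and neural genes held fewer. These lists too were not matched by intron length. Coding genes at large held 23.2 per Mb with 10 to 20 kb of eligible intron and 10.5 with over 40 kb. Of the ligands and receptors 15 of 40 held a peak (37.5%, 26.8 per Mb), the tallest in aos and in fz, a Wnt receptor gene, with 203 (86.5 and 116). Axon guidance and neural adhesion genes, which have long introns, held one in 14 of 60 (23.3%) but at 9.44 per Mb. The tallest there were in kirre, an adhesion gene of muscle and neurons, with 179.7 (75.9 and 105), and Sema1a, a semaphorin gene, with 175 (81.2 and 96.0). At the kirre peak CG32795 overlaps, and the nearest start site, 2518 bp away, was that of CG32795. Ion channel and synapse genes held one in 3 of 44 (6.82%), at 3.02 per Mb of 1.32 Mb. These were Ih, a channel gene, with 137 (54.1 and 89.8), in both replicates, dnc, a phosphodiesterase gene, with 95.01 (34.4 and 57.2), and rg with 60.7 (21.8 and 44.8), named after its value was seen. The tallest peak in dnc was in neither list and that in rg in replicate 2 alone, where CG15465 overlaps rg.

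The smaller lists had few hosts, some of them at high density over little sequence. They too were not matched by intron length. Coding genes at large held 24.98 per Mb with up to 5 kb of eligible intron and 23.2 with 10 to 20 kb. Of the muscle structure genes 3 of 19 held a peak (15.8%), 8 peaks in 0.211 Mb or 37.9 per Mb, with mew at 126 (63.1 and 61.4), how at 48.7 and 53.5 in the 2 replicates and the integrin gene if, named after its value was seen, at 85.9 (33.9 and 53.3). Of the glial genes 1 of 11 did (9.09%, 17.9 per Mb), pnt, an ETS factor gene, with 97.5 (43.8 and 54.8). Of the Polycomb and chromatin genes 2 of 20 did, 2 peaks in 0.0536 Mb or 37.3 per Mb, namely Psc, a Polycomb group gene, with 225 (77.5 and 137), and trx, a histone methyltransferase gene, with 114.5 (73.9 and 40.5), the latter in replicate 1 alone. None of the 92 cytosolic ribosomal protein genes had intronic sequence more than 2000 bp from a start site. Of the 6 NF-Y subunit and reported target genes 1 had such sequence, 0.00191 Mb of it, and 0 held a peak.

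The share of genes with a peak at a start site was higher among hosts of far intronic peaks than among other genes in each range of intron length. A summit lay within 500 bp of a start site in 135 of the 418 coding hosts (32.3%) and in 631 of the 3798 coding genes with eligible intron but no far intronic peak (16.6%). By eligible intron length the shares were 23.4% and 16.0% with up to 5 kb, 39.1% and 20.7% with 5 to 10 kb, 35.1% and 19.5% with 10 to 20 kb, 32.3% and 17.4% with 20 to 40 kb, and 31.0% and 10.4% with more. Hosts had a median of 2 start sites and the other genes 1, and the medians were equal within each range but the longest. No test of the difference was made.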

How the data were processed

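Peaks of 2 ChIP-seq replicates were analysed from the authors' lists in dm6 coordinates. Signal and score are the authors' deposited values. The scale of the signal is not stated. The score is a scaled irreproducible discovery rate (IDR), and 830, the lowest value kept, stands for an IDR of 0.01. The aligner, the caller and read depth are not given in the sources used here, and 16 columns of unnamed inputs in ranked lists were not used. Whether the replicates came from separate collections is stated only by the labels' term biological replicate.

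Start sites, exons and introns came from Ensembl 115 on BDGP 6.54, transposable elements left out, on 6 chromosome arms. A replicate's signal for a pooled peak was that of the overlapping ranked entry with the nearest summit. Side summits can share an entry. Shares were compared by Fisher's exact test, motifs at summit and flank by McNemar's exact test (two-sided), and densities by an exact binomial test, with Benjamini-Hochberg adjustment, a threshold of 0.05 and 95% exact intervals, which cover counting error only. Code was tested on simulated data. The peaks, lists and motifs were chosen with earlier results of these data known. Named genes were hosts of the 15 tallest peaks in both replicates, of the 6 largest series, of the 2 tallest peaks per list and of peaks with the NF-Y motif. Alternatives changed the list, threshold, distance limit, annotation, overlap, window and flank. Gene symbols missing from the annotation (2 of the zinc finger list, 1 of the signalling list and 1 of the ion channel list) were left out. The work ran in Python 3.11.15 with scipy 1.17.1, numpy 2.4.6, matplotlib 3.10.9 and pandas 2.3.3.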

Additional observations from a re-analysis of the deposited data

How the results depend on the processing

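Of the alternative values of tested effects, 76 kept direction and side of the threshold, 3 odds ratios came to pass, 2 no longer passed and 2 turned direction. Of the alternative counts and shares, 37 stayed close to the main number, which does not say that the same genes or motifs were counted, and 17 moved. The far intronic share of 19.6% was 16.7% to 18.5% in the own lists of the replicates, 16.8% in the upper 50% by signal, 27.2% with a limit of 1000 bp and 10.3% with 5000 bp. The odds ratio of being in both replicates against far intergenic peaks turned to 1.07 in the upper 50% (Fisher's exact adjusted p = 0.812) and to 1.02 when 50% overlap was required (adjusted p = 0.937). That against near intronic peaks was 0.715 in the upper 50% (exact adjusted p = 0.114) and 0.761 with 5000 bp (adjusted p = 0.0688). The odds ratio of tall peaks against far intergenic peaks was 0.326 to 0.610 in the own lists and 0.314 with the upper 10% as tall (exact adjusted p = 2.0e-04). Motifs passing against the flank numbered 2 with merged peaks, 3 with 1000 bp, and 1 each with 100 bp windows, the left flank and the flank at 1000 bp. With 25 bp windows 1 passed against promoters, GAGA in place of DRE. Against promoters 0 passed in the conservative list, in either own list, in the upper 50% and with 5000 bp, and against far intergenic peaks 1, NF-Y, passed with 1000 bp (14 of 911 and 18, Fisher's exact adjusted p = 0.0420). List genes holding a peak, 77 in the pooled list, were 49 to 55 in the own lists and 48 in the upper 50%. The cause was not tested. Leaving out peaks with a signal under 20, chosen after seeing the data, ended no call and moved no main count by over 1.5 times (share 19.5%). No paired analysis was possible because the samples form 1 group. Read depth is unknown, so what it limits could not be set.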
